A study of Mus musculus with 12 samples.

Results

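In cultured mouse pancreatic cancer cells, 38 genes read near background at 1 or more of their probe sets in the line with an endogenous mutant p53, and were clearly measured there in the 3 groups of the p53-deleted line. They were chosen on the arrays themselves. A probe set, the group of short probes that reads a transcript on the array, was a member where its mean log2 value was under 5 in the mutant line and 8 or more in each of the other 3 groups, and where the annotation gave it a single gene symbol. On this scale a difference of 1 is a doubling. Of 45101 probe sets on the array, 56 had the pattern. Leaving out 8 probe sets of 5 other genes named in the rule, and 3 without a single symbol, gave 45 member probe sets of 38 genes, of 18193 genes measured. The genes Auts2, Tm4sf1, Slco3a1, Fgfr2, Clic6 and Kbtbd11 had more than 1 member probe set, and each gene is given below by the probe set with the widest separation.

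The 4 groups had 3 arrays each. The mt-CCs were cancer cells of a Pdx1-Cre, K-ras G12D tumor with a Trp53 R172H allele. The fl-CCs + p53 R175H were fl-CCs transfected with human p53 R175H, the counterpart of mouse R172H, and the fl-CCs + EV were fl-CCs transfected with the empty vector. Both transfected groups were grown with G418. The fl-CCs were cancer cells of a Pdx1-Cre, K-ras G12D tumor with a floxed Trp53 allele, labelled null. All groups therefore shared the K-ras allele and the Cre, which the Pdx1 promoter drives in the pancreatic epithelium, and the last 3 groups shared 1 parental line. Each genotype was represented by a single line, so p53 status and line cannot be told apart between mt-CCs and the rest. The labels name no separate transfections, so p53 R175H and other differences between the transfected populations cannot be told apart either. Replicates were separate preparations of a line, and the errors measure the spread between these preparations only. Trp53 itself was not analysed here.

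Several of these genes are known from polarized epithelia of gut, liver and pancreas. Such cells carry microvilli on their apical face, seal and anchor their sides with tight junctions and desmosomes, and use endoderm transcription factors of the HNF, FOXA and GATA families to express transporters, secreted proteins and metabolic enzymes. Such genes are known to be reduced when pancreatic cancer cells lose differentiation.

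Arrays of a group correlated at 0.994 to 0.996 over all probe sets, mt-CC arrays correlated at 0.960 to 0.963 with the others, and the 3 groups of the fl-CC line correlated at 0.983 to 0.990 among themselves. Krt8, Krt18 and Krt19, keratins of simple epithelia, were at 12 or more in all groups. Epcam, Cdh1, Krt7 and Ocln had their lowest mean in mt-CCs. Krt7 averaged 8.52 in mt-CCs, 12.02 with p53 R175H, 13.06 with EV and 12.96 in fl-CCs, and Cdh1 10.01 in mt-CCs, 12.48 with p53 R175H, 12.21 with EV and 12.25 in fl-CCs. Of 10 epithelial markers 3 were under 5 in mt-CCs, 2 with p53 R175H, 3 with EV and 2 in fl-CCs, with Cldn4 and Esrp1 under 5 in all groups. Their summed level on the log2 scale ranged from 14.99 to 15.09 in mt-CCs, from 15.43 to 15.45 with p53 R175H, from 15.60 to 15.67 with EV and from 15.63 to 15.70 in fl-CCs. Of 11 fibroblast markers, 7 were under 5 in mt-CCs and 9 in fl-CCs. Their summed level ranged from 10.59 to 10.62 in mt-CCs and from 7.86 to 8.25 in fl-CCs, with the transfected cells between them (8.39 to 8.46 with p53 R175H and 8.24 to 8.35 with EV), and with Dcn, Lum, Fap and Postn under 5 in all groups and Col3a1 at 9.50 in mt-CCs and 3.48 in fl-CCs. Col1a1 averaged 8.74 in mt-CCs and 5.59 in fl-CCs. Pdgfra averaged 6.95 in mt-CCs and 4.95 in fl-CCs, and Pdgfrb 7.37 in mt-CCs and 6.11 in fl-CCs. Col1a2, Pdpn and Thy1 were under 5 in all groups. Of 10 leukocyte markers 7 were under 5 in each group, Ptprc among them, with summed levels of 8.70 to 8.78 in mt-CCs, 7.90 to 8.08 with p53 R175H, 7.82 to 7.99 with EV and 7.89 to 8.08 in fl-CCs. Cd68 averaged 7.66 in mt-CCs, 5.43 with p53 R175H, 5.66 with EV and 5.75 in fl-CCs. Coro1a averaged 6.43 in mt-CCs and 5.93 in fl-CCs, and Csf1r 5.06 in mt-CCs and 5.20 in fl-CCs. Whether other cells contribute to the values was not tested. In bulk RNA, fewer cells expressing a gene and less RNA per cell cannot be told apart.

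Across the member genes, group means ran from 2.62 to 4.96 in mt-CCs, from 8.03 to 11.09 with p53 R175H, from 8.10 to 10.99 with EV and from 8.01 to 11.32 in fl-CCs. These levels follow from the rule and are given without a test. In mt-CCs 43.1% of all probe sets had a mean under 5, a share similar to the 42.9% in fl-CCs. Among the 11186 named probe sets at 8 or more in all 3 groups of the fl-CC line, 0.474% were under 5 in mt-CCs. Before the named exceptions were set aside, 53 named probe sets were under 5 in mt-CCs alone, 0 in the p53 R175H cells alone, 2 in the EV cells alone and 0 in fl-CCs alone. The mirror pattern, 8 or more in mt-CCs and under 5 in the rest, was found at 73.

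The plot of all 12 arrays shows the spread within each group. Replicate 1 was the lowest p53 R175H array in 21 of the 38 genes, and the fl-CC replicate 1 was the lowest of its group in 18, Tfr2 and Plekhb1 among them. In 27 genes all 3 mt-CC arrays were under 5, in 9 genes 2 of 3 were, and in Papss2 and Kbtbd11 only 1 was. In 36 genes all 9 other arrays were at 8 or more, the exceptions being Plekhb1 and Hsd17b14. The highest mt-CC value of any member was 5.5 and the lowest value of any other array was 7.59. Within the groups, the median SD of the member genes was 0.39 in mt-CCs, 0.11 with p53 R175H, 0.09 with EV and 0.12 in fl-CCs.

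**Figure D1:**
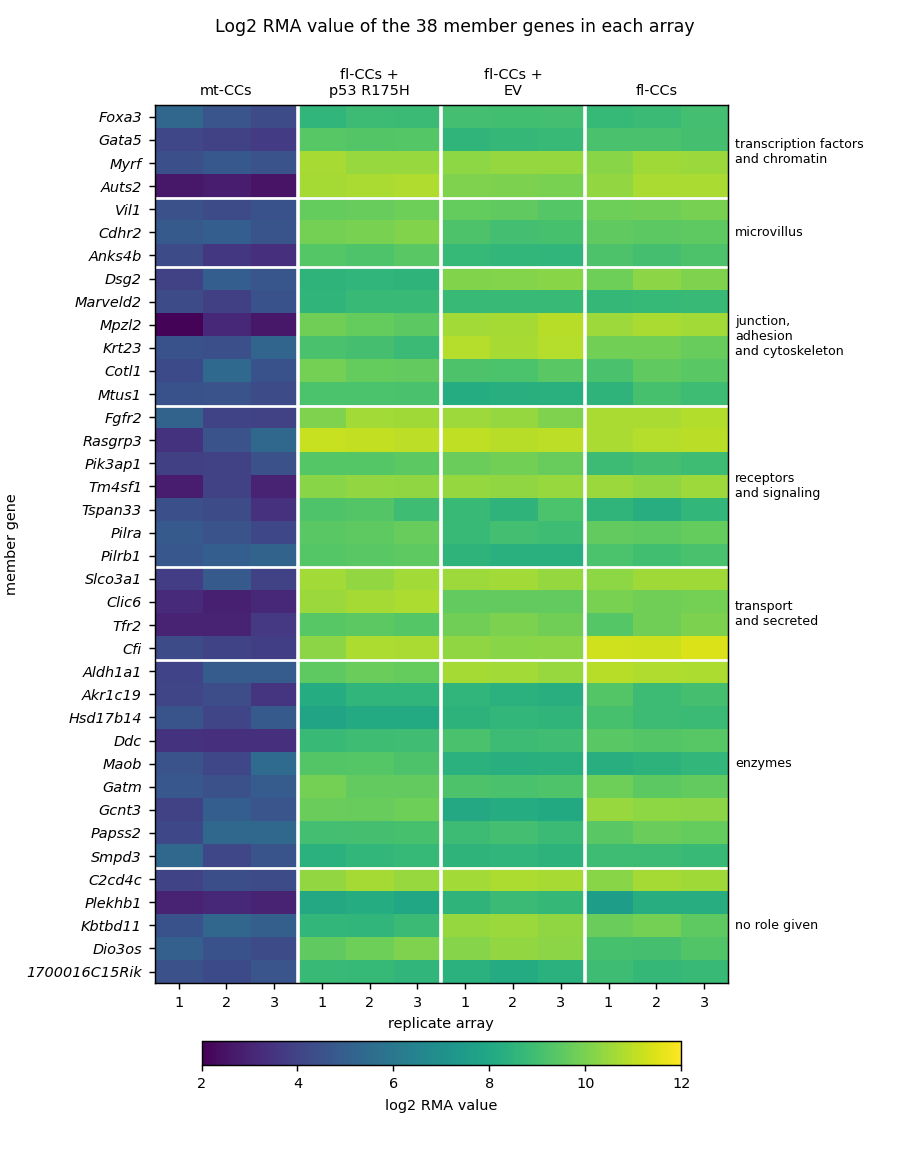
Log2 RMA value (color) of the 38 member genes (rows, ordered by role) in each of the 12 arrays (columns, 3 replicate arrays per group). The mt-CC columns are dark in every row, with values up to 5.5, and the columns of the other 3 groups are green to yellow, with values of 7.59 and more.

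Genes of the microvillus were among the members. Vil1 encodes villin, which bundles the actin core of microvilli, while Cdhr2 and Anks4b encode a protocadherin and a scaffold of the links between microvillus tips. Vil1 read 4.49, 4.34 and 4.52 in mt-CCs, 9.64, 9.69 and 9.80 with p53 R175H, 9.65, 9.56 and 9.38 with EV, and 9.81, 9.84 and 9.94 in fl-CCs. Cdhr2 read 4.81, 4.98 and 4.58 in mt-CCs, 9.93, 9.98 and 10.12 with p53 R175H, 9.21, 9.02 and 9.09 with EV, and 9.56, 9.46 and 9.52 in fl-CCs. All mt-CC arrays of both genes lay under 5. The other 3 groups of Cdhr2 did not overlap, with the p53 R175H cells highest and the EV cells lowest. Anks4b had means of 3.75 ± 0.47 in mt-CCs, 9.34 ± 0.08 with p53 R175H, 8.63 ± 0.07 with EV and 9.15 ± 0.08 in fl-CCs (SD, n = 3 each).

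Promoter windows of RefSeq (build GRCm38.p6), 250 bases before to 50 after a start, were given for 24 of the 38 genes, 33 windows in all. The letters CAAAGTC, the core of the HNF4 site, were 1 of 12 motifs searched on both strands and were found in 5 of the 33 windows (15.2%), in Cdhr2, Tfr2, Aldh1a1, Pilra and Pilrb1, against 4.44% of all 32851 windows and 3.16% of 6969 windows of genes at 8 or more in all 4 groups, called bright in all groups below. Hnf4a itself, which binds such sites, averaged 8.86 in mt-CCs, 12.36 with p53 R175H, 11.93 with EV and 12.31 in fl-CCs. Its part in the member values was not tested. GTTAAT, part of the HNF1 site, stood in Cdhr2 and Anks4b, in 6.06% of the member windows, against 7.10% of all windows and 3.95% of those of genes bright in all groups. The 140 bases before the start of 5 of these genes are shown because they carry the matches beside the members described here, with the HNF4 core and, in Cdhr2 and Anks4b, the HNF1 letters in capitals, on either strand.
Cdhr2, chr13:54701323-54701462, plus strand: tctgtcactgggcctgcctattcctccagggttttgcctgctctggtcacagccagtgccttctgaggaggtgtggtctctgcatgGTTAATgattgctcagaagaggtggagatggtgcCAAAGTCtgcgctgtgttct
Anks4b, chr7:120173718-120173857, plus strand: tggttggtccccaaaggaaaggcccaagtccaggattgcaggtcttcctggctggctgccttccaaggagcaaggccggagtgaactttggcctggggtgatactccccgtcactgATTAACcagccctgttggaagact
Aldh1a1, chr19:20492443-20492582, plus strand: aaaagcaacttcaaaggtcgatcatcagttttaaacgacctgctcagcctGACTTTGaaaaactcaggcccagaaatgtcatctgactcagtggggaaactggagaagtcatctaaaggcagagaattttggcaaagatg
Pilra, chr5:137836279-137836418, minus strand: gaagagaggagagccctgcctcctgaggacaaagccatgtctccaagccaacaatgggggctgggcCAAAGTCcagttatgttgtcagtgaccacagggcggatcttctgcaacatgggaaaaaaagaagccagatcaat
Pilrb1, chr5:137858050-137858189, minus strand: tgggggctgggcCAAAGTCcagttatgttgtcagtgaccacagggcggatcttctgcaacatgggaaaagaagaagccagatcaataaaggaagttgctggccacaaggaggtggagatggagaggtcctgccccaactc
A match is a run of letters and not a shown binding site. The windows of Pilra and Pilrb1 are copies of each other, with 242 of 246 aligned bases alike (98.4%), and count as 1 sequence in this respect.

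The member windows were poorer in CpG than those of genes bright in all groups, and lay nearer to all windows. Their median ratio of observed to expected CpG was 0.29, against 0.80 in the windows of genes bright in all groups and 0.38 in all windows. Of the member windows 33.3% had a ratio of 0.6 or more, against 77.7% in genes bright in all groups and 35.8% in all windows. CAGGTG, an E-box read by ZEB and SNAIL factors, was found in 39.4% of member windows, 20.2% of all windows and 16.0% of the windows of genes bright in all groups. Of 14 mesenchymal markers, factors of these families among them, 0 were under 5 in mt-CCs, 3 with p53 R175H, 4 with EV and 3 in fl-CCs. Their summed level ranged from 15.71 to 15.76 in mt-CCs, from 15.17 to 15.31 with p53 R175H, from 15.12 to 15.16 with EV and from 14.95 to 15.05 in fl-CCs. Their median was 10.16 in mt-CCs, 10.20 with p53 R175H, 10.24 with EV and 9.98 in fl-CCs. Cdh2 had its lowest mean in mt-CCs (9.95, against 10.66 in fl-CCs), and the other listed markers had their highest there. Zeb2 averaged 9.82 in mt-CCs, 8.18 with p53 R175H, 7.58 with EV and 6.64 in fl-CCs, and Snai2 11.29 in mt-CCs, 10.10 with p53 R175H, 10.23 with EV and 9.98 in fl-CCs, while Zeb1 averaged 10.37 in mt-CCs and 9.97 in fl-CCs. Their part in the member values was not tested. TATAAA was found in 21.2% of member windows, 13.6% of all windows and 6.46% of the windows of genes bright in all groups. The shares in member windows, all windows and windows of genes bright in all groups were 3.03%, 3.65% and 2.61% for TGTTTAC (FOXA), 15.2%, 11.2% and 5.39% for AGATAA, read by GATA factors, and 15.2%, 11.8% and 6.01% for TTTATG (CDX). In the same order they were 9.09%, 6.83% and 11.5% for AACCGG (GRHL), 6.06%, 7.81% and 4.49% for TGANTCA (AP-1), and 42.4%, 35.4% and 32.6% for AGGAAG (ETS). For CACCC (KLF) they were 48.5%, 57.5% and 62.7%, and for GGGCGG (SP1) 39.4%, 35.7% and 67.1%. Each of the HNF1, FOXA, GRHL and AP-1 counts rests on 3 or fewer member windows, and windows of 1 gene can overlap.

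Members with roles in transcription were Foxa3, Gata5, Myrf and Auts2. Auts2, a chromatin regulator first studied in neurons, read 2.66, 2.80 and 2.52 in mt-CCs, 10.66, 10.72 and 10.80 with p53 R175H, 10.07, 10.03 and 9.98 with EV, and 10.39, 10.72 and 10.72 in fl-CCs. The p53 R175H cells and fl-CCs overlapped and the EV cells lay below both. Since all mt-CC arrays were under 5, taken here as the limit of measurement, the difference of mt-CCs from fl-CCs was at least 5.61 at this probe set. Myrf, a membrane-bound transcription factor known from myelinating cells, read 4.44, 4.74 and 4.56 in mt-CCs, 10.68, 10.47 and 10.46 with p53 R175H, 10.30, 10.43 and 10.42 with EV, and 10.22, 10.58 and 10.50 in fl-CCs. Its fl-CC arrays overlapped those of both transfected groups. The endoderm factor Gata5 averaged 3.94 ± 0.20 in mt-CCs, 9.35 ± 0.04 with p53 R175H, 8.64 ± 0.09 with EV and 9.11 ± 0.04 in fl-CCs (SD, n = 3 each). Foxa3, a forkhead factor of liver and gut, averaged 4.76 ± 0.49 in mt-CCs, 8.76 ± 0.14 with p53 R175H, 9.0 ± 0.02 with EV and 8.84 ± 0.16 in fl-CCs (SD, n = 3 each), with 1 mt-CC array at 5.29.

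Junction, adhesion and cytoskeletal members were Dsg2, Marveld2, Mpzl2, Krt23, Cotl1 and Mtus1. Mpzl2, an immunoglobulin-type adhesion molecule of epithelia, read 2.09, 3.14 and 2.63 in mt-CCs, 9.85, 9.66 and 9.46 with p53 R175H, 10.60, 10.67 and 10.91 with EV, and 10.52, 10.73 and 10.60 in fl-CCs. Dsg2, a cadherin of desmosomes, read 3.97, 4.97 and 4.69 in mt-CCs, 8.49, 8.59 and 8.51 with p53 R175H, 10.11, 10.15 and 10.23 with EV, and 9.81, 10.26 and 10.08 in fl-CCs. In both genes the p53 R175H arrays lay between the mt-CC arrays and those of the EV cells and fl-CCs, which overlapped each other. Krt23, a type I keratin, read 4.53, 4.44 and 5.25 in mt-CCs, 9.15, 9.05 and 8.82 with p53 R175H, 10.87, 10.70 and 10.90 with EV, and 9.86, 9.86 and 9.68 in fl-CCs. No groups overlapped in Krt23, and the EV cells were highest. Marveld2, or tricellulin, which seals the corners where cells meet, varied little outside mt-CCs, with 4.25 ± 0.33 in mt-CCs, 8.68 ± 0.13 with p53 R175H, 8.75 ± 0.03 with EV and 8.70 ± 0.04 in fl-CCs (SD, n = 3 each). Cotl1, which binds actin filaments, had an mt-CC mean of 4.74 and means of 9.71 with p53 R175H, 9.27 with EV and 9.38 in fl-CCs, at a probe set of the x_at class, whose probes can match more than 1 transcript. Mtus1, a microtubule-associated protein, had means of 4.46 in mt-CCs, 9.16 with p53 R175H, 8.26 with EV and 8.83 in fl-CCs.

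Members of cell surface signaling were Fgfr2, Rasgrp3, Pik3ap1, Tm4sf1, Tspan33, Pilra and Pilrb1. Tm4sf1, a 4-span membrane protein of many carcinomas, read 2.79, 3.93 and 3.0 in mt-CCs, 10.24, 10.37 and 10.34 with p53 R175H, 10.43, 10.34 and 10.47 with EV, and 10.48, 10.34 and 10.52 in fl-CCs. Rasgrp3, an exchange factor that activates Ras proteins, read 3.46, 4.54 and 5.34 in mt-CCs, 11.17, 11.07 and 11.02 with p53 R175H, 11.05, 10.91 and 11.003 with EV, and 10.74, 10.89 and 10.97 in fl-CCs. Fgfr2, a receptor of fibroblast growth factors, read 5.20, 4.06 and 3.93 in mt-CCs, 10.08, 10.60 and 10.56 with p53 R175H, 10.53, 10.43 and 10.08 with EV, and 10.72, 10.73 and 10.86 in fl-CCs. The mt-CC arrays of Rasgrp3 and Fgfr2 spread widely, each with 1 array above 5, and in all 3 genes the p53 R175H and EV arrays overlapped. Pik3ap1, an adaptor for PI3-kinase known from B cells, read 3.90, 3.97 and 4.48 in mt-CCs, 9.37, 9.38 and 9.49 with p53 R175H, 9.70, 9.87 and 9.69 with EV, and 8.87, 9.06 and 8.90 in fl-CCs. Its groups did not overlap, with the EV cells highest. The tetraspanin gene Tspan33, also read by an x_at probe set, had means of 4.06 in mt-CCs, 9.16 with p53 R175H, 8.80 with EV and 8.47 in fl-CCs.

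Pilra and Pilrb1 encode an inhibitory and an activating receptor of a pair known from myeloid cells, and lie side by side on chromosome 5 with 0 protein-coding genes between them. Pilra read 4.85, 4.56 and 4.19 in mt-CCs, 9.45, 9.53 and 9.68 with p53 R175H, 8.74, 9.01 and 8.91 with EV, and 9.59, 9.51 and 9.65 in fl-CCs. Pilrb1 read 4.72, 4.99 and 5.17 in mt-CCs, 9.35, 9.46 and 9.53 with p53 R175H, 8.5, 8.35 and 8.34 with EV, and 9.17, 8.98 and 9.12 in fl-CCs. In both genes the EV arrays were the lowest of the 3 bright groups and overlapped neither of the others. The genes are close copies, so their probe sets may share signal and are not independent. Tfr2 lies 12 protein-coding genes away on the same chromosome, and all other neighboring members on a chromosome were at least 66 protein-coding genes apart.

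Transport and secreted members were Slco3a1, Clic6, Tfr2 and Cfi. Clic6, of the chloride intracellular channel family, read 3.23, 2.88 and 3.11 in mt-CCs, 10.51, 10.64 and 10.77 with p53 R175H, 9.61, 9.61 and 9.59 with EV, and 9.98, 9.82 and 9.90 in fl-CCs. Cfi, a protease that inactivates complement, read 4.34, 4.06 and 3.84 in mt-CCs, 10.24, 10.77 and 10.74 with p53 R175H, 10.34, 10.23 and 10.27 with EV, and 11.27, 11.23 and 11.45 in fl-CCs. Clic6 was highest in the p53 R175H cells and Cfi in fl-CCs, with no overlap with the other groups. The organic anion transporter Slco3a1 read 3.84, 4.84 and 3.93 in mt-CCs, 10.60, 10.40 and 10.62 with p53 R175H, 10.53, 10.63 and 10.43 with EV, and 10.29, 10.59 and 10.59 in fl-CCs. Tfr2, a transferrin receptor by which hepatocytes sense iron, read 2.95, 2.98 and 3.65 in mt-CCs, 9.41, 9.48 and 9.37 with p53 R175H, 9.83, 10.02 and 9.82 with EV, and 9.35, 9.82 and 10.03 in fl-CCs, at an x_at probe set. The bright groups of Slco3a1 overlapped throughout, and in Tfr2 the first fl-CC array was low, just under the p53 R175H arrays.

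The largest role group was that of 9 enzymes, with mt-CC means of 3.40 to 4.96. Aldh1a1, which makes retinoic acid from retinaldehyde, read 4.03, 4.90 and 4.90 in mt-CCs, 9.51, 9.72 and 9.62 with p53 R175H, 10.65, 10.61 and 10.47 with EV, and 10.94, 10.79 and 10.75 in fl-CCs. Gcnt3, which builds branched mucin-type glycans, read 3.93, 4.97 and 4.64 in mt-CCs, 9.72, 9.69 and 9.77 with p53 R175H, 8.03, 8.19 and 8.08 with EV, and 10.46, 10.31 and 10.26 in fl-CCs. Both genes separated all 4 groups, with Aldh1a1 lowest among the bright groups in the p53 R175H cells and Gcnt3 lowest among them in the EV cells. Ddc, which makes dopamine and serotonin, read 3.48, 3.37 and 3.36 in mt-CCs, 8.75, 8.88 and 8.92 with p53 R175H, 9.13, 8.87 and 8.95 with EV, and 9.45, 9.32 and 9.40 in fl-CCs. Maob, a monoamine oxidase, read 4.55, 4.12 and 5.5 in mt-CCs, 9.31, 9.38 and 9.19 with p53 R175H, 8.39, 8.31 and 8.36 with EV, and 8.27, 8.46 and 8.61 in fl-CCs. Ddc was highest in fl-CCs and Maob in the p53 R175H cells. Gatm, for the first step of creatine synthesis, had means of 4.71 in mt-CCs, 9.70 with p53 R175H, 9.2 with EV and 9.62 in fl-CCs. Papss2, which makes the sulfate donor PAPS, had means of 4.96 in mt-CCs, 9.06 with p53 R175H, 8.90 with EV and 9.58 in fl-CCs. The aldo-keto reductase gene Akr1c19 had means of 4.0 in mt-CCs, 8.46 with p53 R175H, 8.42 with EV and 9.08 in fl-CCs. Smpd3, a neutral sphingomyelinase, had means of 4.71 in mt-CCs, 8.56 with p53 R175H, 8.51 with EV and 8.83 in fl-CCs. Hsd17b14, a hydroxysteroid dehydrogenase, had means of 4.52 in mt-CCs, 8.03 with p53 R175H, 8.55 with EV and 8.92 in fl-CCs.

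No role is given for the remaining 5 genes. C2cd4c read 4.06, 4.39 and 4.27 in mt-CCs, 10.38, 10.64 and 10.45 with p53 R175H, 10.61, 10.77 and 10.70 with EV, and 10.22, 10.64 and 10.56 in fl-CCs. Plekhb1 read 3.01, 3.12 and 2.98 in mt-CCs, 8.02, 8.19 and 7.97 with p53 R175H, 8.51, 8.82 and 8.64 with EV, and 7.59, 8.21 and 8.24 in fl-CCs. Dio3os, a noncoding transcript from the strand opposite Dio3, read 5.05, 4.51 and 4.32 in mt-CCs, 9.56, 9.78 and 10.06 with p53 R175H, 10.19, 10.39 and 10.27 with EV, and 9.10, 9.04 and 9.27 in fl-CCs. Each of these genes had its highest mean in the EV cells, without overlap in Plekhb1 and Dio3os. Kbtbd11 read 4.53, 5.30 and 5.03 in mt-CCs, 8.61, 8.6 and 8.80 with p53 R175H, 10.43, 10.51 and 10.33 with EV, and 9.73, 9.89 and 9.53 in fl-CCs. Its groups did not overlap. 1700016C15Rik had means of 4.46 in mt-CCs, 8.67 with p53 R175H, 8.31 with EV and 8.78 in fl-CCs.

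**Figure D2:**
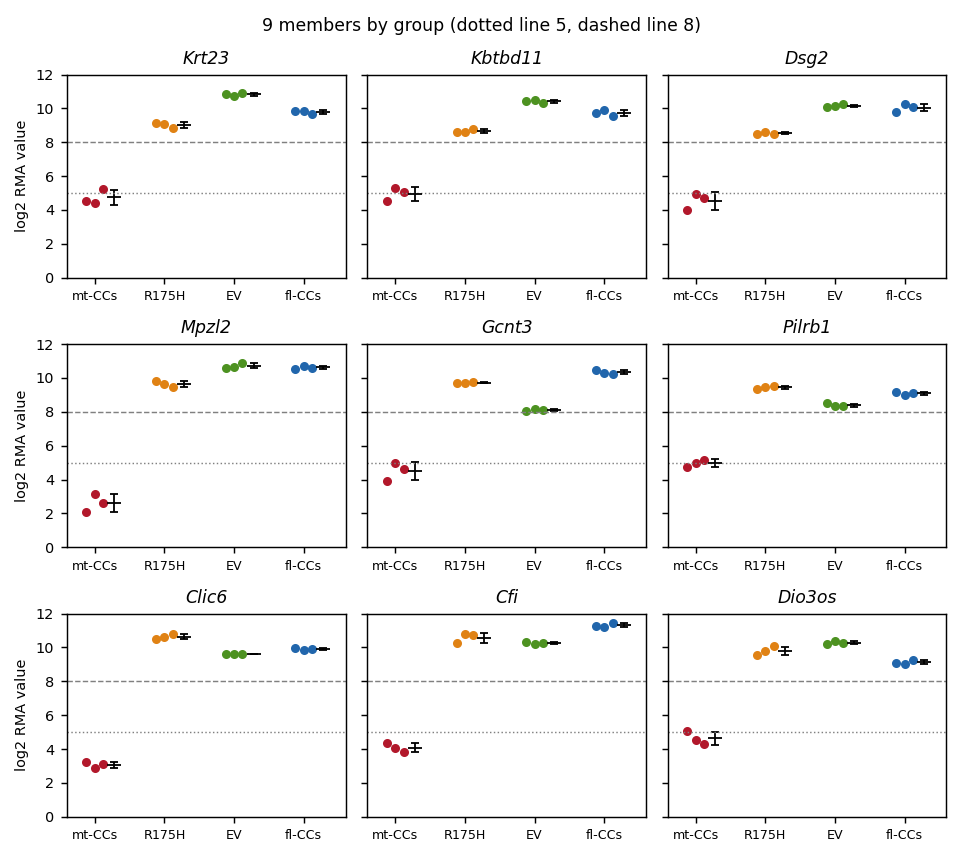
Log2 RMA value (vertical axis) of 9 members in mt-CCs, fl-CCs + p53 R175H (R175H), fl-CCs + EV (EV) and fl-CCs. Colored points are arrays, the black mark and bar beside them the mean and SD of 3 arrays, and the lines the limits 5 and 8 of the rule. The p53 R175H arrays lie under the EV arrays in Krt23, Kbtbd11, Dsg2 and Mpzl2 and over them in Gcnt3, Pilrb1 and Clic6.

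The limits of the rule cut through a continuous range. The member probe sets closest to the lower limit were those of Kbtbd11 (a second one), Pilrb1 and Papss2, with mt-CC means of 4.97, 4.96 and 4.96. Just outside it lay other probe sets of the members Cotl1 (5.04) and Rasgrp3 (5.07), and Ddit4l (5.15). At the upper limit, the lowest bright group mean was 8.01 in Plekhb1, 8.03 in Hsd17b14 and 8.09 in a second probe set of Clic6. Just outside, it was 7.99 in Myo5b, 7.93 in Ivl and 7.88 in Dennd5b.

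Some members were measured above 5 in mt-CCs by other probe sets. The array carried 37 further probe sets for 18 of the genes, and 20 genes had none. In mt-CCs 18 of the 37 had means from 5 to 8, in 10 genes, and 0 reached 8. The highest mt-CC means were 7.39 in Papss2, against 11.58 in fl-CCs, 6.70 in Kbtbd11, against 9.23 in fl-CCs, and 6.39 in Tm4sf1, against 13.28 in fl-CCs. Cotl1 averaged 6.41 in mt-CCs and 9.10 in fl-CCs and Pik3ap1 6.29 in mt-CCs and 8.30 in fl-CCs at their highest further probe set. For Papss2, Kbtbd11, Tm4sf1, Cotl1 and Pik3ap1 "reduced" describes the mt-CC values better than "off". In the rest of the 10 genes the highest such mean was 5.07 (Rasgrp3) to 5.96 (Dsg2). These lie close to the limit of 5, and without detection calls they do not show expression. Of the 37 further probe sets, 20 were at 8 or more in fl-CCs, and all 20 were at least 1 lower in mt-CCs.

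**Figure D3:**
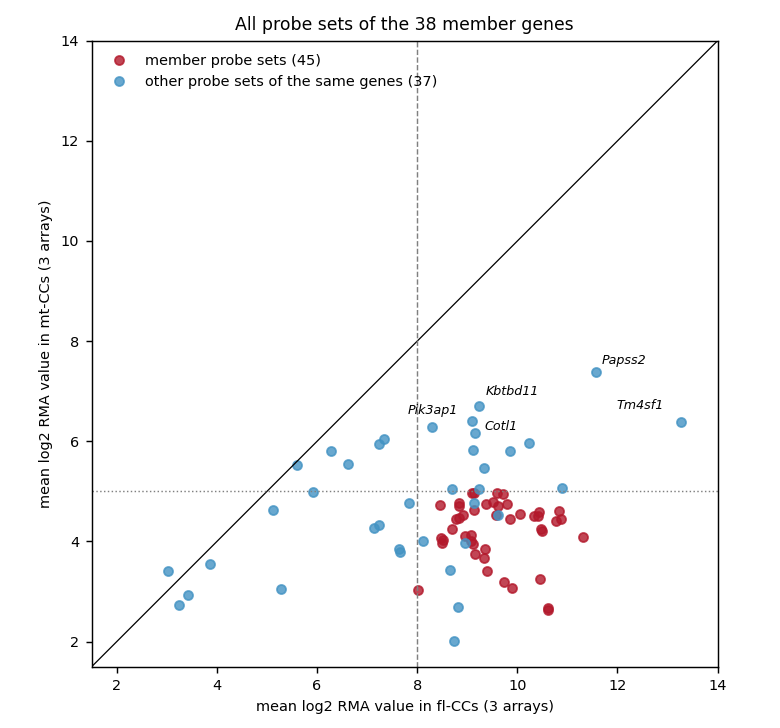
Mean log2 RMA value in mt-CCs (vertical axis) against fl-CCs (horizontal axis) for the 45 member probe sets (red) and the 37 other probe sets of the same genes (blue), with the diagonal of equal values and the limits 5 and 8. Named blue points, up to 7.39 in Papss2, are other probe sets that read above the limit of 5 in mt-CCs.

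The comparison of the transfected cells reads these genes with and without human mutant p53 in the p53-deleted line. The rule set only a floor of 8 for both groups and did not use their difference. The floor barred genes that either group took below 8, such as Myo5b at 7.99 in the p53 R175H cells. The counts thus cover only differences that leave both groups at 8 or more. The difference was tested with limma over 45037 probe sets in a fit of all 12 arrays. It passed where its Benjamini-Hochberg adjusted p did not exceed 0.05. With p53 R175H against EV, 12 of the 38 genes rose, 7 fell and 19 did not pass, so that 50% changed. Of all probe sets 20.3% changed, 10.2% up and 10.2% down, and of the 12141 probe sets at 8 or more in the same 3 groups 36.5% changed, 18.5% up and 18.0% down. The median difference of the members was 0.08, and the median size of the difference was 0.48, against 0.23 at the probe sets of like brightness.

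The genes that fell with p53 R175H were led by Krt23 and included adhesion molecules. Krt23 averaged 9.0 with p53 R175H and 10.82 with EV, a difference of -1.82 ± 0.18 (SE, adjusted p = 2.65e-05). Kbtbd11 differed by -1.75 ± 0.17 (adjusted p = 2.01e-05), with 8.67 in the p53 R175H cells and 10.42 in the EV cells. The desmosomal cadherin Dsg2 differed by -1.63 ± 0.20 (adjusted p = 0.000146), with 8.53 in the p53 R175H cells and 10.16 in the EV cells, and all 5 of its further probe sets were lower as well, with differences of -1.34 to -2.00. Mpzl2 differed by -1.07 ± 0.21 (adjusted p = 0.00347), and both of its further probe sets were also lower. Aldh1a1 differed by -0.96 ± 0.19 (adjusted p = 0.00373), and Plekhb1 and Hsd17b14 by -0.60 and -0.52. The rule fixes a mean of 8 or more in the p53 R175H cells at the member probe set alone. At further probe sets the p53 R175H cells averaged 6.30 to 8.84 for Dsg2, 7.29 and 7.66 for Mpzl2, and 6.83 for Hsd17b14, which did not pass there (adjusted p = 0.704). The calls of Plekhb1 and Hsd17b14 were lost when single arrays were left out, for Plekhb1 the p53 R175H replicate 1 or 3 or the EV replicate 2 and for Hsd17b14 any of the 6 (adjusted p up to 0.135 over all alternatives).

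The genes that rose with p53 R175H were led by Gcnt3, which averaged 9.73 with p53 R175H and 8.10 with EV, a difference of 1.63 ± 0.20 (SE, adjusted p = 0.000123). Gcnt3 averaged 10.34 in fl-CCs, so its EV cells lay below both the p53 R175H cells and the parental line. Both further probe sets of Gcnt3 rose too, by 1.64 and 1.59. Pilrb1 differed by 1.04 ± 0.12 (adjusted p = 5.93e-05) and Clic6 by 1.04 ± 0.10 (adjusted p = 2.65e-05). The microvillus genes Cdhr2 and Anks4b rose by 0.90 ± 0.11 (adjusted p = 0.000106) and 0.71 ± 0.18 (adjusted p = 0.0149), while Vil1 differed by 0.18 (adjusted p = 0.245). Among the transcription factors Gata5 and Auts2 rose by 0.71 and 0.70, and Foxa3 and Myrf did not pass the test. Auts2 also rose by 0.59 at its second member probe set, but its further probe sets did not pass (adjusted p of 0.224 to 0.422). Mtus1, Pilra, Gatm and 1700016C15Rik rose by 0.89, 0.67, 0.50 and 0.37. Maob differed by 0.94 ± 0.25 (adjusted p = 0.0211), a call that was lost when 1 array was left out in 5 of 6 cases (adjusted p of 0.0518 to 0.0659). The call of 1700016C15Rik was lost without any 1 of the 6 arrays (adjusted p up to 0.165 over all alternatives), that of Anks4b without the p53 R175H replicate 3 (adjusted p = 0.053) and that of Gatm without the p53 R175H replicate 1 or the EV replicate 2 (adjusted p up to 0.0638).

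Some members did not pass the test, which does not show that they were equal. Marveld2 differed by -0.07 (95% interval -0.37 to 0.23) and Ddc by -0.13 (-0.33 to 0.07). Slco3a1 differed by 0.01 (-0.46 to 0.47) at its first member probe set, and by -0.29 (-0.54 to -0.04, adjusted p = 0.103) at a second one, where the groups did not overlap. The interval of Rasgrp3, from -0.62 to 0.82, was wide, since the fit shares its spread over all groups and the mt-CC arrays of this gene varied with an SD of 0.94. Of the further probe sets of genes that did not pass, 4 rose and 15 did not pass. Cotl1 rose by 0.68, 0.38 and 0.34 at such probe sets (adjusted p up to 0.0191). Fgfr2 rose by 0.48 at a probe set under 5 in all groups.

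The comparison of EV cells with fl-CCs shows what transfection and growth in G418 went with in the same genes. Of the 38, 5 rose with EV, 11 fell and 22 did not pass, so that 42.1% changed. Of all probe sets 12.1% changed, 6.45% up and 5.66% down, and of those at 8 or more in the 3 groups 19.9% changed, 10.3% up and 9.64% down. The median difference was -0.27, against -0.01 at the probe sets of like brightness. This comparison and the preceding one share the EV arrays, which bear on both in opposite directions. Of the 12 genes that rose with p53 R175H against EV, 8 were lower with EV than in fl-CCs. Of the 7 that fell, 3 were higher with EV than in fl-CCs. By probe sets, 19 of 45 members passed, and 11 did without the EV replicate 2 and 12 without the fl-CC replicate 3. Of the further probe sets of genes that did not pass, 4 were lower with EV and 21 did not pass. The lower ones were those of Papss2 (-0.62 and -0.80), Hsd17b14 (-0.71) and Smpd3 (-0.56).

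Gcnt3 had the largest difference of the members, with 8.10 in EV cells and 10.34 in fl-CCs (-2.24 ± 0.20, SE, adjusted p = 2.21e-05). Its further probe sets differed by -2.42 and -2.52. Cfi differed by -1.04 ± 0.15 (adjusted p = 0.000933), Pilrb1 by -0.69 ± 0.12 (adjusted p = 0.00214) and Auts2 by -0.58 ± 0.11 (adjusted p = 0.00425). Pilra was lower by about the same amount as its copy (adjusted p = 0.00838). Mtus1, 1700016C15Rik, Gata5, Ddc, Cdhr2 and Vil1 were also lower, with differences of -0.57 in Mtus1 to -0.33 in Vil1. Of these 6, Gata5 alone kept its call under all 16 alternatives. Leaving out the EV replicate 2 ended the calls of Ddc, Cdhr2, Vil1 and 1700016C15Rik, leaving out the EV replicate 3 those of Cdhr2 and Vil1, and leaving out the EV replicate 1 that of Mtus1. Without the fl-CC replicate 1 the calls of Cdhr2, Vil1 and 1700016C15Rik were lost, without the fl-CC replicate 2 those of Cdhr2, Vil1 and Mtus1, and without the fl-CC replicate 3 all 4 of these. The adjusted p of Vil1 reached 0.157 over its alternatives. The 5 genes that were higher with EV were Dio3os (1.15 ± 0.18, adjusted p = 0.00127), Krt23 (1.03 ± 0.18, adjusted p = 0.00302), Pik3ap1 (0.81 ± 0.14, adjusted p = 0.00241), Kbtbd11 (0.71 ± 0.17, adjusted p = 0.0173) and Plekhb1 (0.65 ± 0.16, adjusted p = 0.0192). The calls of this pair were lost when single arrays were left out, for Kbtbd11 the EV replicate 1 or 2 or the fl-CC replicate 3 (adjusted p of 0.0508 to 0.0678) and for Plekhb1 the EV replicate 2 or 3 (adjusted p of 0.0768 and 0.0521).

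**Figure D4:**
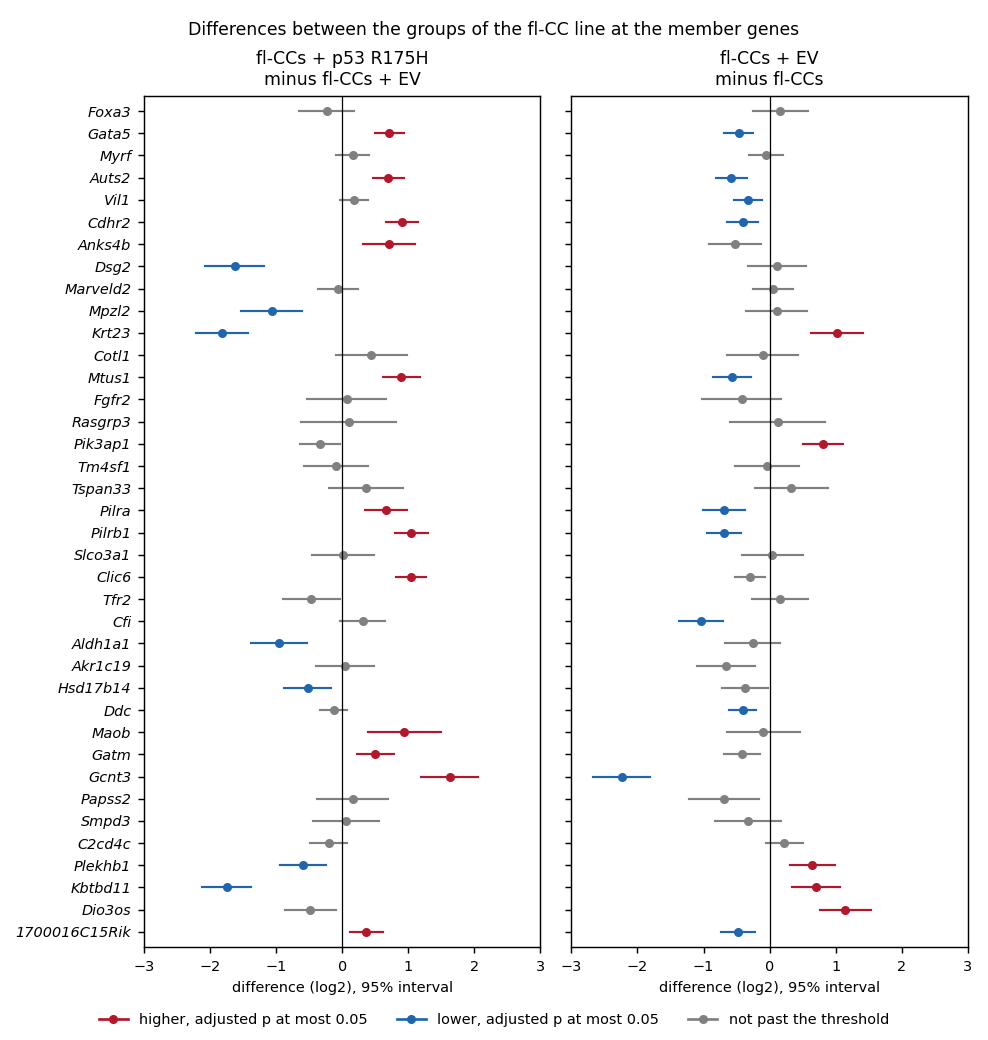
Difference on the log2 scale (horizontal axis, point) with its 95% interval (line) for the 38 member genes, p53 R175H cells minus EV cells on the left and EV cells minus fl-CCs on the right. Red marks genes higher and blue genes lower at an adjusted p of 0.05 or less, 12 and 7 on the left and 5 and 11 on the right, and the panels share the EV arrays.

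To place the members among related genes, 13 lists of epithelial genes were read between mt-CCs and fl-CCs without the members. Of 296 listed genes measured, 139 were lower in mt-CCs (47.0%), 42 were higher (14.2%) and 115 did not pass, against 21.1% lower and 22.2% higher among 18193 genes, 43.3% in both directions together, where a gene was read by whichever of its probe sets had the lowest adjusted p. The lists were written with earlier results of these arrays known and are described by their counts alone. A listed gene lower in mt-CCs than in fl-CCs need not be low in mt-CCs alone, since transfected cells can lie between them, as in Tff1 below. Of the members, 10 stood on a list and 28 on none.

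Junction genes were mostly lower. Of 22 tight junction and claudin genes 15 were lower in mt-CCs and 2 higher, and of 20 adherens junction and desmosome genes 13 were lower and 1 higher. Marveld3, which like the member Marveld2 encodes a tight junction protein, was under 5 in all mt-CC arrays and at 7.92 in fl-CCs, at least 2.92 lower (adjusted p = 5.03e-10). Crb3, a polarity protein of the apical membrane, averaged 6.58 in mt-CCs and 9.85 in fl-CCs (-3.27 ± 0.18, SE, adjusted p = 2.7e-08). Perp, a component of desmosomes like the member Dsg2, averaged 8.61 in mt-CCs and 11.88 in fl-CCs (-3.27 ± 0.08, adjusted p = 2.34e-11), and the adhesion molecule Epcam averaged 6.88 in mt-CCs and 9.78 in fl-CCs. Cldn3 was higher in mt-CCs, with 5.90 in mt-CCs and 4.66 in fl-CCs. Of 14 keratins and linked genes other than Krt23, 5 were lower and 2 higher, with Krt7 at 8.52 in mt-CCs and 12.96 in fl-CCs (-4.45 ± 0.10, adjusted p = 2.02e-11) and Krt16 at 6.53 in mt-CCs and 4.52 in fl-CCs.

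Apical genes showed both directions. Of 23 brush border genes other than Vil1 and Cdhr2, 10 were lower and 4 higher. The actin bundler Pls1 averaged 7.22 in mt-CCs and 10.65 in fl-CCs (-3.43 ± 0.08, SE, adjusted p = 2.86e-11), while the aminopeptidase Anpep averaged 8.70 in mt-CCs and 4.78 in fl-CCs. Of 25 genes of epithelial polarity and vesicle traffic 13 were lower and 3 higher. Myo5b, a motor of apical traffic that missed the rule with 7.99 in the p53 R175H cells, was under 5 in all mt-CC arrays and at 8.36 in fl-CCs, at least 3.36 lower. Of 29 ion transport genes 9 were lower and 3 higher, with the zinc transporter Slc39a4 at 6.44 in mt-CCs and 10.46 in fl-CCs.

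Transcription factors were divided. Of 20 endoderm and pancreatic factors other than Foxa3 and Gata5, 11 were lower and 3 higher in mt-CCs. Hnf4a differed by -3.46 ± 0.08 (SE, adjusted p = 2.81e-11), and Gata6, a relative of Gata5, averaged 6.21 in mt-CCs and 9.14 in fl-CCs (-2.93 ± 0.10, adjusted p = 3.67e-10). The intestinal factor Cdx2 was higher, with 11.19 in mt-CCs and 7.69 in fl-CCs (3.50 ± 0.18, adjusted p = 1.47e-08), as was the pancreatic factor Pdx1, with 10.95 in mt-CCs and 9.84 in fl-CCs. Of 20 general epithelial factors 6 were lower and 4 higher, with Esrp2, a splicing regulator, at 6.42 in mt-CCs and 9.10 in fl-CCs and the ETS factor Ehf at 9.58 in mt-CCs and 6.19 in fl-CCs.

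Secretory and metabolic lists held large changes in both directions. Of 25 genes of mucins, trefoil factors and glycosylation other than Gcnt3, 10 were lower and 4 higher. The trefoil factor Tff1 averaged 6.76 in mt-CCs and 11.78 in fl-CCs (-5.01 ± 0.12, SE, adjusted p = 2.34e-11), with 9.80 with p53 R175H and 9.37 with EV. Of 28 liver and gut secretory genes 13 were lower in mt-CCs and 2 higher. The median difference of these 28 genes was -0.27 with mt-CCs against fl-CCs and -0.29 with EV against fl-CCs. Among them Serpina1b, an antitrypsin gene, averaged 2.72 in mt-CCs, 8.42 with p53 R175H, 3.04 with EV and 8.52 in fl-CCs, so that it was near background in the EV cells as well. Of 20 surface proteases and inhibitors 6 were lower and 3 higher in mt-CCs. In this list Wfdc2, a secreted protease inhibitor, had the largest rise, with 12.85 in mt-CCs and 6.15 in fl-CCs (6.71 ± 0.23, adjusted p = 3.83e-10). Of 29 retinoid, lipid and xenobiotic enzymes other than Aldh1a1, 16 were lower and 6 higher, and its relative Aldh1a3 was higher, with 8.81 in mt-CCs and 6.22 in fl-CCs (2.59 ± 0.20, adjusted p = 7.49e-07). The median difference of these 29 genes was -0.33 with mt-CCs against fl-CCs and -0.35 with EV against fl-CCs. Of 21 receptor kinases and ligands other than Fgfr2, 12 were lower and 5 higher, with Fgfr3 at 6.38 in mt-CCs and 8.79 in fl-CCs and Egfr at 10.14 in mt-CCs and 7.32 in fl-CCs.

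**Figure D5:**
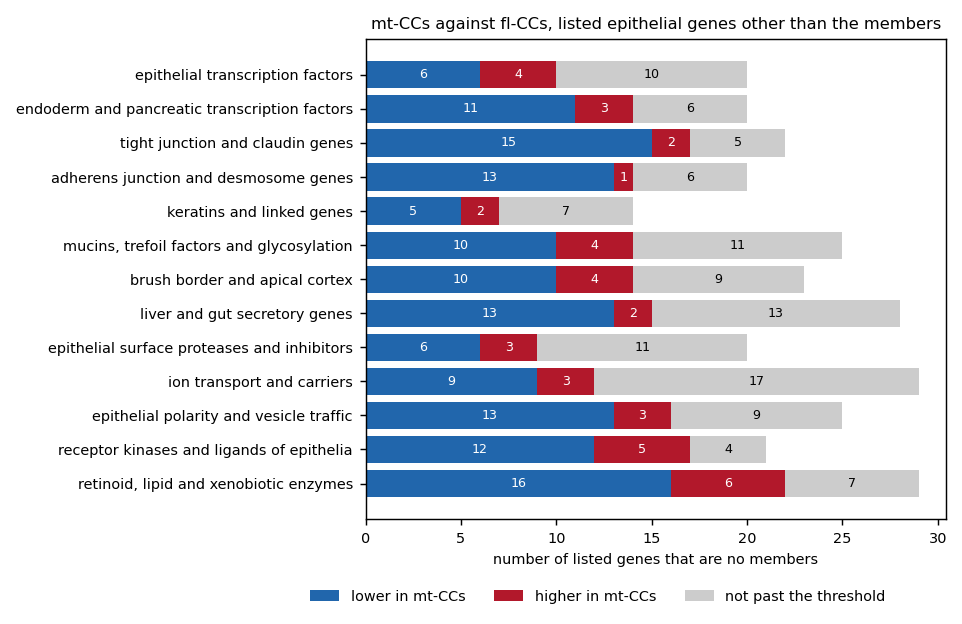
Number of listed epithelial genes (horizontal axis) lower in mt-CCs than in fl-CCs (blue), higher (red) or not past an adjusted p of 0.05 (grey), by list, without the 38 member genes. Lower genes outnumber higher ones in all 13 lists, 139 against 42 in all.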

How the data were processed

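RNA of 12 cultures was measured on Affymetrix mouse GeneChips in 4 groups of 3. The authors labeled cDNA, checked the arrays with the affy package and summarized probe sets by RMA, for which the submitters' processing notes give no version. What they deposited are log2 values, with a median of 5.59 in every array. RMA takes array-wide differences in brightness away, and its low values are compressed, so a difference from a value near background is a lower bound. No detection calls were used. The limits 5 and 8 are those of the rule, and 5 was taken as the limit of measurement. The number of arrays limits the precision.

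After 64 control probe sets were set aside, 45037 were tested in R 4.3.3 with lmFit and eBayes of limma 3.58.1, in a fit of group means over all 12 arrays. The threshold was that of the methods, an adjusted p (Benjamini-Hochberg) of at most 0.05 and no fold limit. The fit was also run on simulated arrays with the same spread in all groups. The members spread more in mt-CCs, so that run does not speak for them. Symbols came from the platform annotation given for this work, in which 34958 probe sets had 1 symbol, 932 had several and 9160 had none. Sequences came from the RefSeq promoter table.

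All 38 member genes are named. All 12 values are given for the 15 widest separations and for the 5 largest called rises and falls of each comparison. Of each list, those printed come from the 2 called genes with the largest rise and the 2 with the largest fall. The members, the lists and the motifs were chosen with earlier results of these data known, and the role groups after the values were seen. Alternatives were other limits, other normalizations, fits of fewer groups, the replicate number as a block, no moderation, an intensity trend, array weights, dim probe sets left out, controls kept, a fold limit and leaving out each array.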

Additional observations from a re-analysis of the deposited data

How the results depend on the processing

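The number of member probe sets, 45, was 29 when every array and not the mean had to pass, 89 with limits of 5.5 and 7.5, and 19 with limits of 4.5 and 8.5. It ranged from 42 to 46 when each array was left out.

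With a difference of at least 1 required in addition, the member probe sets called with p53 R175H against EV were 9 (4 higher and 5 lower) of 1552 in all, and with EV against fl-CCs 5 (3 higher and 2 lower) of 1049 in all. Without that limit they were 22 (14 and 8) and 19 (6 and 13). Leaving out each array in turn gave 16 to 18 calls (10 to 11 higher and 6 to 7 lower) with p53 R175H against EV and 11 to 15 (4 to 6 higher and 7 to 10 lower) with EV against fl-CCs. With EV against fl-CCs 7 were lower without the EV replicate 2 or the fl-CC replicate 3 and 8 without the fl-CC replicate 2. Fewer arrays enter these fits. Over all probe sets, p53 R175H against EV gave 7161 to 7423 calls in them and 9163 in the main fit.

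The deviations of same-numbered arrays correlated at -0.09 to 0.04 over all probe sets. They were compared for p53 R175H with EV, EV with fl-CCs and mt-CCs with fl-CCs only. No pairing by replicate number showed there, but pairing at fewer probe sets or between other groups is not excluded. With the replicate number as a block, 21 member probe sets (14 higher and 7 lower) were called with p53 R175H against EV, 17 (6 and 11) with EV against fl-CCs, and 177 listed genes (41 and 136) between mt-CCs and fl-CCs, of 181 (42 and 139) without it. Over all probe sets the block gave 8527 calls with p53 R175H against EV, against 9163 without it. With EV against fl-CCs it gave 4774, against 5452. A fit of only the 9 arrays of the fl-CC line, chosen after seeing the data, called 24 (14 and 10) and 22 (6 and 16) member probe sets. It called 9142 of all probe sets with p53 R175H against EV. The other alternatives kept every count within 1.5 times its main value. By gene, 13 of the 19 members called with p53 R175H against EV and 9 of the 16 called with EV against fl-CCs kept their call under all 16 alternatives run for them without a fold limit. The calls lost in the first comparison were those of Plekhb1, Anks4b, Gatm, 1700016C15Rik, Maob and Hsd17b14, and in the second those of Ddc, Vil1, Plekhb1, Cdhr2, 1700016C15Rik, Mtus1 and Kbtbd11. Most losses came from leaving out single arrays. In an unmoderated fit Maob (adjusted p = 0.0637), 1700016C15Rik and Hsd17b14 lost theirs in the first comparison, with the replicate block Hsd17b14 did there and Vil1 and Cdhr2 in the second, and in a fit of only the 2 groups Vil1, Mtus1 and Plekhb1 (adjusted p = 0.0794) did in the second. Vil1 also lost its call in the fit of 9 arrays. None of these called differences changed sign under these alternatives. With 3 arrays a group, differences of mt-CC values near background cannot be sized beyond a lower bound.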
